A study of Mus musculus with 6 samples.

Results

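Serpins are protease inhibitors, and the genes whose symbol begins with Serpin were described here in M0505 and STOSE cells. The deposited table held 61 probe sets with such a symbol, which stood for 59 genes of the 20405 genes with a symbol on the array. Where a gene had several probe sets, the probe set was chosen by its mean over the 6 arrays, the highest being kept, and this applied to 2 Serpin genes. The family itself was picked with results of these arrays known, so the values below describe its members and lend no separate support to the family as a choice.

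M0505 is a cell line established from the ovarian surface epithelium, the mesothelium-like layer that covers the ovary, of FVB/N mice. STOSE cells arose from M0505 cells by spontaneous transformation during long culture, with no introduced gene, and both lines were grown in the same murine ovarian surface epithelium medium, which contained serum, EGF and an insulin supplement. RNA of 3 M0505 and 3 STOSE biological replicates was hybridised to Affymetrix Mouse Gene 1.0 ST arrays, and values are log2 RMA (robust multi-array average) values. Each condition is 1 line, nothing in the labels says what separated its replicates, and p-values measure only the spread between these arrays.

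A typical inhibitory serpin offers a reactive loop as bait, is cleaved by its target protease and then traps that enzyme in a covalent complex. Clade letters follow descent: clade A serpins are mostly secreted plasma proteins such as the antitrypsins, clade B serpins lack a classical secretion signal and act largely within cells, and the remaining clades hold regulators of clotting, fibrinolysis, complement, vessel growth and collagen folding. In the ovary, proteases of the plasminogen system and their serpin inhibitors are known for remodelling the follicle wall at ovulation.

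The Serpin genes that differed furthest between the lines, Serpinb2 and Serpinb8, lie in the same run of genes on mouse chromosome 1, and the bases upstream of their starts and of the genes flanking Serpinb2 are shown here so that they can be read beside the values. Serpinb2 lies between Serpinb7 and Serpinb10 in a run of clade B genes, and Serpinb8 follows Serpinb10. The 150 bases before a start are given 5′ to 3′ on the + strand from the RefSeq promoters of GRCm38.p6. Capitals mark the letters TGANTCA, which take in the core bound by AP-1 (Fos and Jun) proteins and its close variants, and TATAAA, the TATA box, on either strand; the TATA letters of Serpinb7 lie on the reverse strand.
Serpinb7, chr1:107422539-107422688: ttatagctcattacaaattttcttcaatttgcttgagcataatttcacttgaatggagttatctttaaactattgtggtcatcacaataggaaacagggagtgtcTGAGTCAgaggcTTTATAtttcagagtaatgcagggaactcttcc
Serpinb2, chr1:107511273-107511422: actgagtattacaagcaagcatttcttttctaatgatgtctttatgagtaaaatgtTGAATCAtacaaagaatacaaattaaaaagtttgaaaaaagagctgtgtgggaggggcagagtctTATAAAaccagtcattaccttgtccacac
Serpinb10, chr1:107528853-107529002: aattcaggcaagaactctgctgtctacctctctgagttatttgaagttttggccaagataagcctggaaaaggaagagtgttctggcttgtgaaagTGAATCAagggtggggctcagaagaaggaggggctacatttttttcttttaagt
Serpinb8, chr1:107589856-107590005: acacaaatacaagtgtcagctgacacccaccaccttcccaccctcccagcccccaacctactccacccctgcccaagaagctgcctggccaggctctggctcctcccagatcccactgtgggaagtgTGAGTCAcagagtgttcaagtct
The AP-1 letters begin 45 bases before the start of Serpinb7, 94 before that of Serpinb2, 54 before that of Serpinb10 and 23 before that of Serpinb8. Serpinb7 and Serpinb8 hold the form TGAGTCA, the usual core, and Serpinb2 and Serpinb10 the variant TGAATCA. The TATA letters begin 29 bases before the start of Serpinb2. For Serpinb2 this is the upstream of the pair of starts that the promoter table lists, and the annotated gene reaches further upstream of both.

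Most of the family was not above background. A value was taken as above background when it exceeded 4.74, the 95th percentile of the 1134 probe sets of olfactory receptor genes, which these cells are not known to use. By the mean of either line, 18 of the 59 Serpin genes (30.5%) were above background, compared to 72.3% of all genes. In M0505 cells 15 were above it and in STOSE cells 18, the additional 3 being Serpinb2, Serpina10 and Serpine3. The other 41 genes had line means between 2.14 and 4.67, and their log2 fold changes ranged from -0.17 to 0.57.

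STOSE compared to M0505 cells differed at 4 of the 59 Serpin genes (6.78%), where a call needed a limma adjusted p under 0.05 and a linear fold change of at least 2. By the same call 12.5% of all genes differed, so the family held no larger share of calls than the array as a whole. Higher were 2 genes, Serpinb2 and Serping1, beside 4.9% of all genes higher, and 2 genes including Serpinb8 were lower, beside 7.59% of all genes lower. All 4 were among the 18 genes above background in either line, of which they made 22.2%; the share for all genes above background in either line was 17.1%. The median log2 fold change of the 59 genes was 0.10 and that of all genes 0.08, while single Serpin genes ranged from -1.58 to 6.50.

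Smaller differences were frequent on the whole array. With the adjusted p alone, 12 Serpin genes were higher, 5 were lower and 42 did not pass, and 56.5% of all genes passed. The arrays of the lines did not overlap for 24 of the 59 genes, against 64.6% of all genes. By the adjusted p this was 28.8% of the family, most of which was dim. Among genes above background in either line the share was 66.7% for Serpin genes and 70.8% for all genes.

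**Figure D1:**
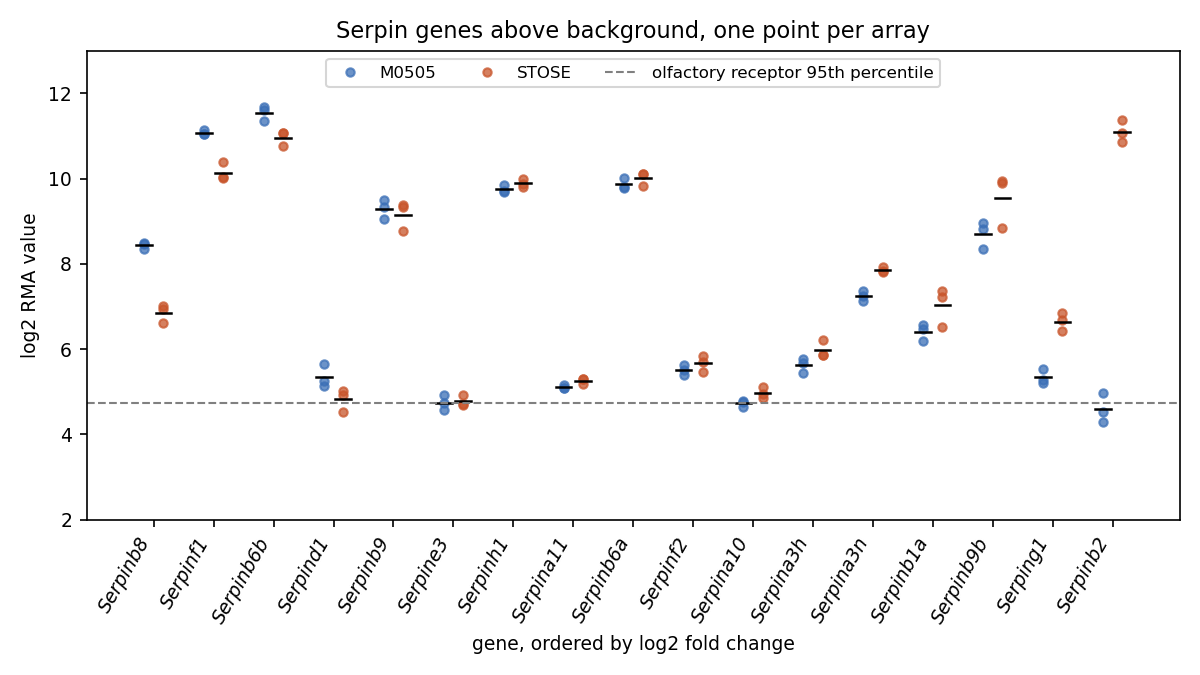
Log2 RMA value (y axis) of 17 Serpin genes above background in either line (x axis, ordered by log2 fold change); each point is 1 array, short bars are line means and the dashed line is the olfactory receptor 95th percentile. The M0505 points of Serpinb2 lie about the dashed line and its STOSE points from 10.86 to 11.38, whereas Serpinb9 overlaps between the lines.

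Serpinb2, also known as plasminogen activator inhibitor 2, is a clade B inhibitor of urokinase that is typically induced in activated macrophages and in keratinocytes. On the M0505 arrays it read 4.98, 4.30 and 4.53, and on the STOSE arrays 11.38, 11.07 and 10.86. The M0505 arrays fell on either side of the background line, and every STOSE array exceeded every M0505 array. Its mean rose from 4.60 ± 0.34 to 11.11 ± 0.26 (SD, n = 3), a log2 fold change of 6.50 with a standard error of 0.18 and a 95% confidence interval of 6.08 to 6.93. The linear fold change was 90.7 (limma adjusted p = 4.06e-08). Because the M0505 level lies at background, this fold rests on a starting value that the array measures poorly.

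Markers of the cell types that normally carry Serpinb2 were read on the same arrays. Of 10 keratinocyte markers, 2 were called higher in STOSE cells and 0 lower, 20% beside 12.5% of all genes and 17.1% of those above background. By the adjusted p alone 6 were higher, 60% beside 31.6% of all genes. Called were Krt14, a basal cell keratin, higher by 3.34 on the log2 scale, and Ivl, the cornified envelope protein involucrin, by 1.24. The summed linear signal of the 10 was 374 to 396 on the M0505 arrays and 1256 to 1501 on the STOSE arrays, Krt14 had the brightest probe set in STOSE cells, and Krt1, Krtdap, Dsg1a and Lor were under background in both lines. The part of these markers in the rise of Serpinb2 was not tested. Of 14 macrophage and leukocyte markers, 8 were under background in both lines, among them the defining Ptprc, Emr1, Csf1r, Itgam and Lyz2. By the adjusted p alone, 5 of the 14 were higher, 35.7% beside 31.6% of all genes, and 1 was lower. The lower gene was Cd68, a lysosomal gene with the brightest probe set of that list in M0505 cells, at a log2 fold change of -2.82, and the largest of the rises was that of Cd14, the lipopolysaccharide co-receptor, at 0.97, short of the call and named after its value was seen. With Cd68 included the summed linear signal of the list was 1012 to 1275 on the M0505 arrays and 490 to 516 on the STOSE arrays, and without Cd68 it was 293 to 299 and 360 to 392, the opposite order.

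Serpinb8, an intracellular serpin known to inhibit the proprotein convertase furin, moved the other way. It read 8.35, 8.47 and 8.49 on the M0505 arrays and 6.61, 7.01 and 6.94 on the STOSE arrays, with no overlap. The log2 fold change was -1.58 with a standard error of 0.11 (95% confidence interval -1.82 to -1.34), a linear fold change of -2.99 (limma adjusted p = 4.45e-06). Serpinb8 remained above background in STOSE cells.

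The opposite course of Serpinb2 and Serpinb8 was known beforehand and is given as a description. The log2 value of Serpinb2 minus that of Serpinb8 was -3.37, -4.17 and -3.96 on the M0505 arrays and 4.77, 4.06 and 3.91 on the STOSE arrays. The shift between the lines was 8.08 on the log2 scale. The difference on a given array also holds the unlike brightness of the probe sets, so only its shift bears on a change. Since Serpinb2 lay at background in M0505 cells, the size of that shift shares the uncertainty of its starting value.

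Clade B had 26 genes on the array, 12 on chromosome 1 and 14 on chromosome 13, and 7 of the 26 were above background in either line. On chromosome 1 only Serpinb2 and Serpinb8 were above background in either line. The genes that flank Serpinb2 were under background in both lines, Serpinb7 (megsin) at 2.20 and 2.77 and Serpinb10 at 2.56 and 2.91 for M0505 and STOSE cells. Both passed the adjusted p, with log2 fold changes of 0.57 (limma adjusted p = 0.00153) and 0.36 (limma adjusted p = 0.00284), at values where the array gives little information. The 6 genes of the table next to the run, 3 on each side from Bcl2 to Cdh19, held 0 calls, beside 12.5% of all genes. By the adjusted p alone the 3 on the Serpinb5 side, all above background, were lower, Bcl2 by a log2 fold change of -0.74, Kdsr by -0.40 and Vps4b by -0.21, and the 3 on the Serpinb8 side were under background in both lines. Of all genes above background in either line, 33.1% were lower by the adjusted p, a share that 3 genes are too few to be read against.

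**Figure D2:**
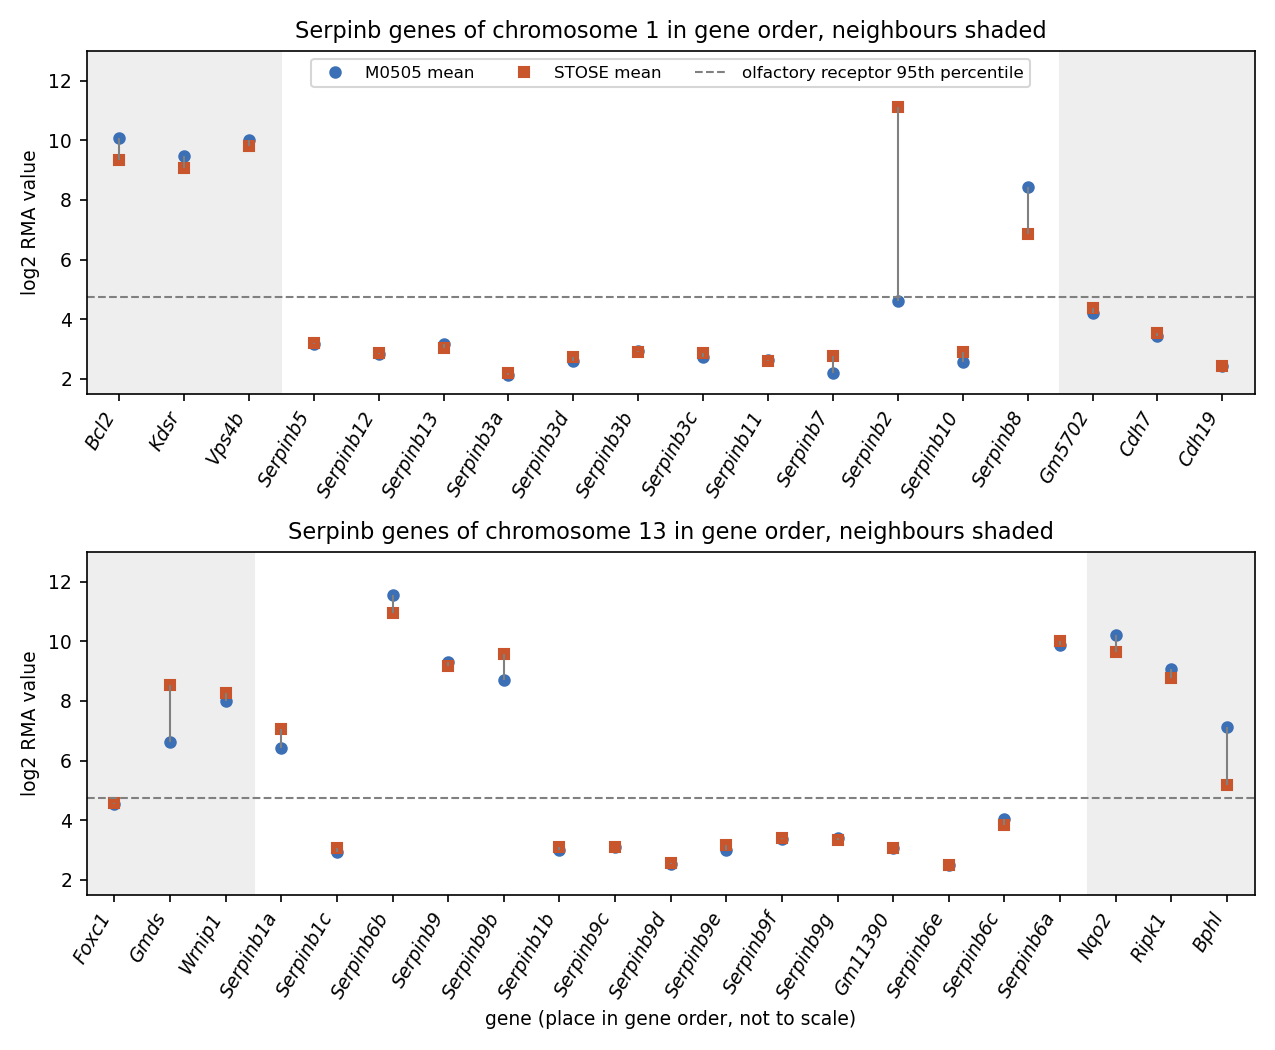
Line means (log2 RMA value, y axis) of the Serpinb genes of chromosome 1 (upper panel) and chromosome 13 (lower panel) in gene order along the x axis, which is not to scale; shaded genes are the 3 neighbours on each side and the dashed line is the olfactory receptor 95th percentile. In the upper panel Serpinb2 rises from 4.60 to 11.11 between flanking genes that stay under the line, and in the lower panel no Serpinb gene was called changed.

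On chromosome 13, 5 Serpinb genes were above background and 0 passed the 2-fold call, beside 17.1% of all genes above background, a share that 5 genes are too few to be read against, the log2 fold changes lying between -0.58 and 0.84. Serpinb6b, related to the cathepsin G inhibitor Serpinb6a, read 11.35, 11.62 and 11.67 in M0505 cells and 10.76, 11.06 and 11.06 in STOSE cells. Its arrays did not overlap, and its log2 fold change was -0.58 ± 0.11 (SE; limma adjusted p = 0.00229). Serpinb6a itself read 9.81, 9.79 and 10.02 in M0505 cells and 9.83, 10.12 and 10.10 in STOSE cells. These arrays overlapped, and the difference of 0.14 had an interval of -0.09 to 0.37 (limma adjusted p = 0.256).

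Serpinb9, the inhibitor by which cytotoxic lymphocytes and some tumor cells resist granzyme B, read 9.06, 9.34 and 9.49 in M0505 cells and 8.76, 9.33 and 9.39 in STOSE cells. The lines overlapped, with a log2 fold change of -0.14 and an interval of -0.54 to 0.27 (limma adjusted p = 0.529), and the sign turned with each array centred on its median or without STOSE replicate 1. Its close relative Serpinb9b read 8.35, 8.82 and 8.96 in M0505 cells and 8.83, 9.94 and 9.90 in STOSE cells, a log2 fold change of 0.84 with an interval of 0.18 to 1.51 (limma adjusted p = 0.0365). STOSE replicate 1 lay within the M0505 range, and without it the log2 fold change of Serpinb9b was 1.21 and the 2-fold call was met. The adjusted p of Serpinb9b was lost without M0505 replicate 1 or 2 or STOSE replicate 2 or 3, at most at a limma adjusted p of 0.118, and with an intensity trend and robust estimation at 0.0586. Serpinb9b also did not pass in the alternative test without limma's moderation of the spread, with or without adjustment. Serpinb1a, an inhibitor of neutrophil proteases, read 6.20, 6.56 and 6.49 in M0505 cells and 6.52, 7.37 and 7.23 in STOSE cells, with the same array inside the M0505 range. Its log2 fold change was 0.63 (limma adjusted p = 0.0312), and it passed without STOSE replicate 1 but did not pass when any of the other 5 arrays was left out (limma adjusted p up to 0.101). Nor did Serpinb1a pass in the test without moderation, with or without adjustment.

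Replicate 1 stood apart in several of these genes. Among the 7 Serpinb genes above background, M0505 replicate 1 was the lowest of its line for 5 and STOSE replicate 1 was the lowest of its line for 6. For Serpinb9b the deviations of these arrays from their line means were -0.36 and -0.73, and for Serpinb1a -0.22 and -0.52. Serpinb2 went against this order, replicate 1 being the highest array of each line. The same count over all genes was not taken, and 5 of the 7 genes lie in 1 run on chromosome 13, so they are not separate observations. What set replicate 1 apart in these genes was not tested.

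**Figure D3:**
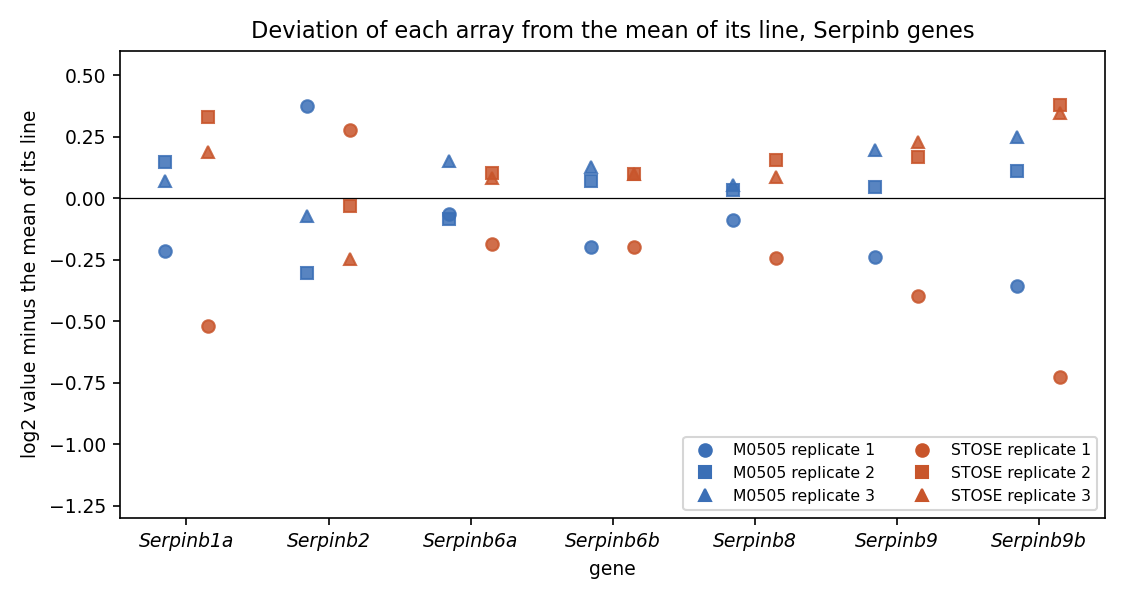
Log2 value of each array minus the mean of its line (y axis) for the 7 Serpinb genes above background (x axis); color gives the line and symbol shape the replicate. Replicate 1 (circles) lies below 0 for Serpinb1a, Serpinb9 and Serpinb9b in both lines and above 0 for Serpinb2 in both lines.

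The Serpinb genes were also compared with each other. For each pair of the 7 genes above background the difference of their log2 values was taken on every array, and for 17 of the 21 pairs this difference did not overlap between M0505 and STOSE cells. Leaving out pairs with Serpinb2 or Serpinb8, 6 of 10 pairs did not overlap. Of single genes above background in either line, 77.9% had arrays that did not overlap, and nothing about the family is read from these counts. The log2 fold change of Serpinb9 minus that of Serpinb9b was -0.98, and that of Serpinb6b minus that of Serpinb9b was -1.43. No test was run for these pairs.

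Clade A was the next largest, with 22 genes, of which 4 were above background in either line, 0 were called, beside 12.5% of all genes, and 4 were higher by the adjusted p alone, 18.2% beside 31.6% of all genes. Its median log2 fold change was 0.10. Serpina3n, an acute-phase inhibitor related to antichymotrypsin, read 7.12, 7.36 and 7.24 in M0505 cells and 7.93, 7.84 and 7.81 in STOSE cells. It did not overlap between the lines and was higher by 0.62 on the log2 scale, a linear fold change of 1.54 (limma adjusted p = 0.000151). Serpina3h, which RefSeq lists as a transcribed pseudogene of the same cluster, read 5.45, 5.76 and 5.67 in M0505 cells and 6.23, 5.87 and 5.87 in STOSE cells, a difference of 0.36 (limma adjusted p = 0.0291) that did not pass without M0505 replicate 1 or 3 or STOSE replicate 1 (limma adjusted p up to 0.0902). Genes of the Serpina3 cluster are near copies of each other, and signal between them may be shared by cross-hybridisation. Serpina10, the protein Z-dependent inhibitor of clotting factor X, lay at background with means of 4.73 and 4.97 (limma adjusted p = 0.0324), and did not pass in 4 of the 6 fits that each left out 1 array, those without M0505 replicate 2 or 3 or STOSE replicate 1 or 3 (limma adjusted p up to 0.112), or after a further quantile normalization (0.0650). Neither Serpina3h nor Serpina10 passed in the alternative test without limma's moderation of the spread, with or without adjustment, whereas Serpina3n passed.

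Hepatocytes are the main source of secreted clade A serpins in the body. Of 10 hepatocyte markers, 0 were called, beside 12.5% of all genes, 3 were higher by the adjusted p alone, 30% beside 31.6% of all genes, and 7 were under background in both lines, including Alb, Ttr, Fga, Fgb, Ahsg and Apoh. The brightest probe set was that of Trf (transferrin), at 11.14 and 11.56 in M0505 and STOSE cells.

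The clades other than A and B held 11 genes, and 7 of these were above background in either line, compared to 7 of 26 in clade B. Serping1, the C1 inhibitor of the first complement proteases and of plasma kallikrein, was higher. It read 5.28, 5.53 and 5.21 in M0505 cells and 6.67, 6.84 and 6.43 in STOSE cells. The arrays did not overlap, and the log2 fold change was 1.31 with an interval of 1.03 to 1.59, a linear fold change of 2.48 (limma adjusted p = 2.89e-05). The call did not hold against limma's treat test for a change beyond 2-fold (limma adjusted p = 0.194).

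Serpinf1, pigment epithelium-derived factor, is a secreted serpin without protease inhibition that restrains vessel growth. It read 11.14, 11.05 and 11.05 in M0505 cells and 10.38, 10.03 and 10.01 in STOSE cells, with no overlap. The log2 fold change of -0.94 (interval -1.17 to -0.70, limma adjusted p = 7.81e-05) fell short of the 2-fold call, which it met at -1.06 without STOSE replicate 1. Serpind1, the thrombin inhibitor heparin cofactor II, read 5.66, 5.25 and 5.14 in M0505 cells and 4.54, 4.92 and 5.03 in STOSE cells, close to background and without overlap, with a log2 fold change of -0.52 (limma adjusted p = 0.0233) that did not pass without replicate 1 of M0505 or of STOSE (limma adjusted p up to 0.0642) or with each array centred on its median (0.0976). Serpind1 also did not pass in the test without moderation, with or without adjustment, whereas Serpinf1 passed.

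Another 4 genes above background did not pass the test and are given for completeness after their values were seen. Serpinh1, the collagen chaperone Hsp47 of the endoplasmic reticulum, read 9.69, 9.70 and 9.85 in M0505 cells and 9.80, 9.87 and 9.99 in STOSE cells, with a difference of 0.14 and an interval of -0.03 to 0.31. Serpina11 differed by 0.14, Serpinf2, the plasmin inhibitor alpha 2-antiplasmin, by 0.16 and Serpine3 by 0.04. Of the single-gene clades, Serpinc1 (antithrombin) was under background in both lines, as were both Serpini genes.

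**Figure D4:**
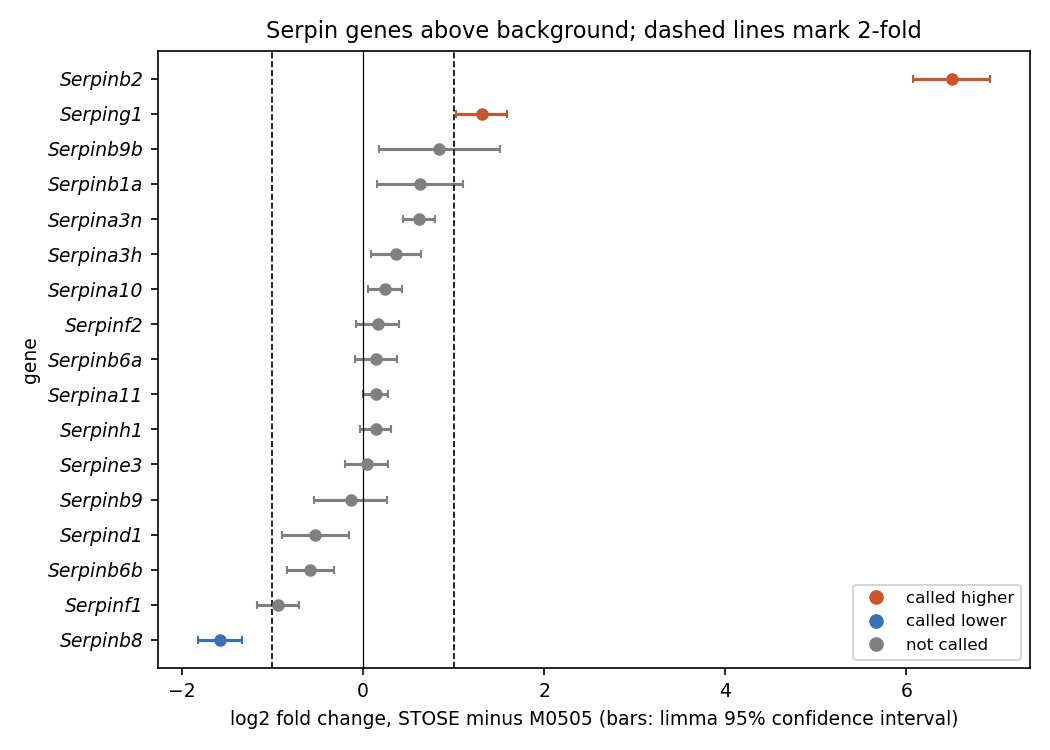
Log2 fold change of STOSE over M0505 cells (x axis) for 17 Serpin genes above background in either line (y axis); bars are limma 95% confidence intervals, dashed lines mark 2-fold and color marks the call. Serpinb2 stands at 6.50, and the intervals of Serpinb1a, Serpinb9b and Serpinf1 cross the 2-fold lines. Those of Serpinb6a, Serpinb9, Serpine3, Serpinf2 and Serpinh1 cross 0.

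Proteases that serpins control were read from a list of 28, of which 27 were on the array; 1 was higher and 3 were lower, 14.8% called beside 12.5% of all genes and 17.1% of all genes above background, and the median log2 fold change was 0.12. Plau, urokinase, the main target of Serpinb2, read 6.69, 6.48 and 6.48 in M0505 cells and 4.58, 4.19 and 4.21 in STOSE cells, under background in the latter, with a log2 fold change of -2.22 (limma adjusted p = 1.05e-06). C1s, a complement protease blocked by Serping1, was lower by a log2 fold change of -3.40, and Ctsh, the lysosomal cathepsin H, by -5.14. The STOSE mean of Ctsh was under background, at 4.46, so the size of its fall is uncertain. Cma1, mast cell chymase, was higher by 1.26 from a mean under background. The targets under background in both lines were Plg, F9, F11, Ctsg, Gzmb, Prss8, Ctsk and Ctss. Plg, plasminogen, had means of 4.45 and 4.72 in M0505 and STOSE cells, the latter just under the line (limma adjusted p = 0.00843). Gzmb, granzyme B, had means of 3.48 and 3.43.

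Receptors and cofactors that clear or assist serpins comprised 12 genes, of which 1 was higher and 4 were lower, 41.7% called beside 12.5% of all genes and 17.1% of those above background, with a median of -0.63. Thbd, thrombomodulin, which turns thrombin towards protein C, fell from 11.02 ± 0.03 to 4.77 ± 0.26 (SD, n = 3), a log2 fold change of -6.25 (limma adjusted p = 5.98e-09). The STOSE arrays of Thbd read 4.95, 4.47 and 4.89, on either side of the background line, so the size of its fall is uncertain. Of the lipoprotein receptor family members that take up protease and serpin complexes, Vldlr was lower by a log2 fold change of -2.27, to a mean under background, and Lrp8 was higher by 2.03. Procr, the endothelial protein C receptor, was lower by a log2 fold change of -1.46.

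Procollagen folding genes, the setting in which Serpinh1 works, comprised 22 genes, 6 of them higher and 1 lower, 31.8% called beside the same 12.5% and 17.1%, with a median of 0.16. Leprel1, a prolyl 3-hydroxylase, read 4.52, 5.00 and 4.93 in M0505 cells and 9.20, 8.90 and 8.77 in STOSE cells, a log2 fold change of 4.14 (limma adjusted p = 1.5e-07). Its M0505 arrays fell on either side of the background line, so the size of this rise is uncertain. Kdelr3, a receptor that retrieves proteins to the endoplasmic reticulum, was higher by 3.21 and Glt25d1, a collagen galactosyltransferase, by 1.62. Tmem38b, an endoplasmic reticulum cation channel, was lower by a log2 fold change of -1.31. Serpinh1, at 0.14, lay close to the median of this list.

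Protease inhibitors outside the serpin fold comprised 42 genes, 4 of them higher and 6 lower, 23.8% called beside 12.5% of all genes, with a median of 0.14. Tfpi, the inhibitor of the tissue factor pathway, read 4.32, 4.67 and 4.45 in M0505 cells and 8.24, 8.19 and 8.20 in STOSE cells, a log2 fold change of 3.73 (limma adjusted p = 1.46e-08) from values under background. Spint1 and Spint2, the Kunitz inhibitors of hepatocyte growth factor activator and related membrane proteases, parted, Spint1 being higher by 2.71 and Spint2 lower by a log2 fold change of -2.26. Slpi, the secretory leukocyte protease inhibitor, was higher by 2.66. Cst11 and Cst8, cystatins of the reproductive tract, were lower by log2 fold changes of -2.94 and -2.49, Cst8 to a mean under background.

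**Figure D5:**
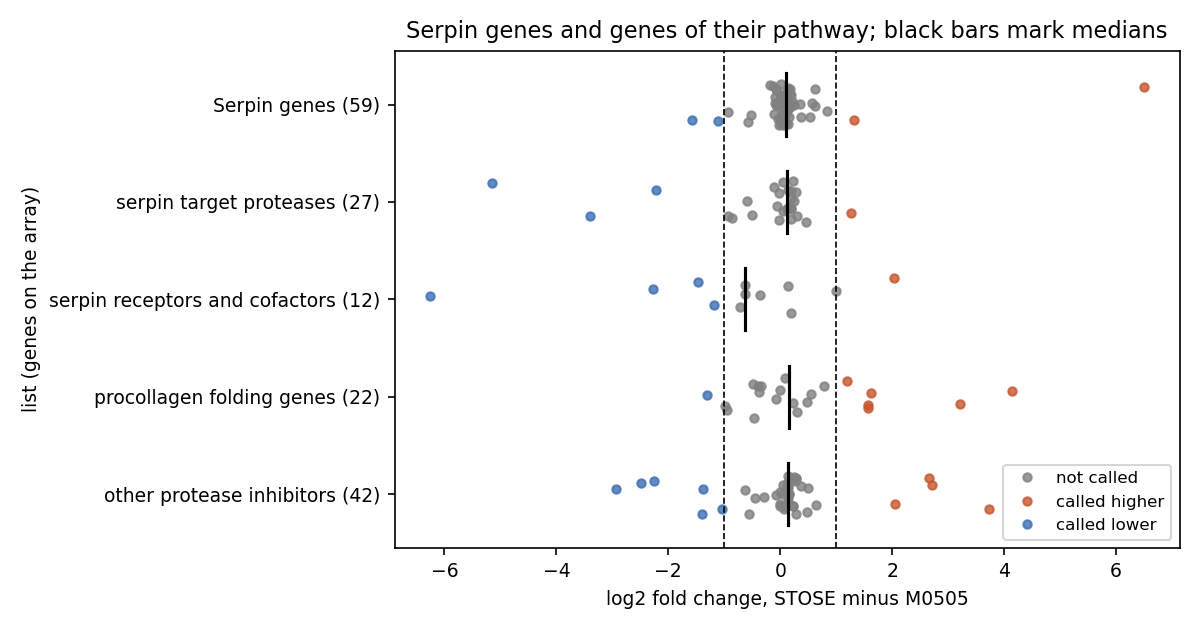
Log2 fold change of STOSE over M0505 cells (x axis) for the Serpin genes and 4 lists of related genes (y axis, number on the array in parentheses); each point is a gene, color marks the call, dashed lines mark 2-fold and black bars are medians. The Serpin genes range from -1.58 to 6.50 about a median of 0.10, 4 of them past 2-fold, and the receptor and cofactor list has its median at -0.63.

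The position of Serpin genes in runs of neighbours was compared with the genes beside them. Of the 24 neighbours of the 4 runs, 2 were higher and 4 were lower. This was 25% compared to 12.5% of all genes and 17.1% of those above background, which is a description of few genes. Beside the chromosome 13 Serpinb run, Gmds, an enzyme of GDP-fucose synthesis, was higher by 1.90 and Bphl, a hydrolase, was lower by a log2 fold change of -1.95. Beside the chromosome 12 Serpina run, Clmn was lower by a log2 fold change of -2.98, to a mean under background, and Ifi27l1 by -1.27, and beside Serpinf1 and Serpinf2 on chromosome 11, Tlcd2 was lower by -3.17 and Rpa1, a subunit of replication protein A, was higher by 1.06. The called neighbours were of opposite direction beside the runs of chromosomes 11 and 13, and both were lower beside that of chromosome 12.

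Promoter letters were counted in the 250 bases before each start on both strands. Of the 59 Serpin genes, 48 had an entry, with 56 promoters among 32851 in all. The AP-1 letters TGANTCA stood in 21.4% of the Serpin promoters and 6.75% of all promoters, and the TATA letters TATAAA in 30.4% and 12.4%. Of the 11 chromosome 1 Serpinb genes with an entry, 7 held the AP-1 letters and 7 the TATA letters. The STAT letters TTCNNNGAA stood in 14.3% of the Serpin promoters and 7.02% of all, while GGGANTTTC, a form bound by NF-κB, and TGACGTCA, the cyclic AMP response element, stood in 0 Serpin promoters and in 0.941% and 1.55% of all. The members share recent duplications, so their promoters are not separate observations. As the printed sequences show, the AP-1 letters stand before each of Serpinb7, Serpinb2, Serpinb10 and Serpinb8. The part of these letters in the values of the genes was not tested.

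Both lines were also read for 13 markers of ovarian surface epithelium, all of which were above background in both. Of these, 0 were called higher and 4 were called lower in STOSE cells, 30.8% beside 12.5% of all genes and 17.1% of those above background; by the adjusted p alone 1 was higher and 10 were lower, the latter 76.9% beside 33.1% of all genes above background. The 4 were the keratins Krt19, Krt8 and Krt7, with log2 fold changes of -5.56, -4.55 and -1.03, and the transcription factor Bnc1, with -1.05. Among 8 granulosa cell markers 2 were called, 25% beside 12.5% of all genes, and by the adjusted p alone 1 was higher and 4 were lower, beside 31.6% of all genes higher and 24.8% lower; the called Inha and Gja1 were lower by log2 fold changes of -3.93 and -1.34, with Fshr, Cyp19a1 and Hsd17b1 under background in both lines. Among 8 endothelial markers 2 were likewise called, by the adjusted p alone 2 were higher and 3 lower, 25% and 37.5% beside the same shares, and the median was 0.04; the called Kdr and Esam were lower by log2 fold changes of -5.17 and -2.77, Kdr to a mean under background, with Pecam1 and Emcn under background in both lines. The part of these markers in the fall of Serpinb8 was not tested, and in bulk RNA fewer cells of a type and less RNA per cell cannot be told apart.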

How the data were processed

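RNA of 3 M0505 and 3 STOSE samples was measured on Affymetrix Mouse Gene 1.0 ST arrays. The authors deposited log2 values, normalized by RMA in Affymetrix Expression Console per the labels; software version, annotation release and genome build are not given in the sources used here. Of the same table, 4 columns of the authors' means and fold changes were not used. An array has no read depth, and 3 arrays per line limit the precision. Of 28944 probe sets 23530 had a symbol, and the highest-mean probe set was kept for each of 20405 genes. Moderated statistics for STOSE against M0505 came from limma (version 3.58.1, R 4.3.3; lmFit, then eBayes) without covariates, and p-values were adjusted by Benjamini-Hochberg across every gene; the code was tested on simulated data. The members, lists and the background measure were chosen with earlier results of these data known. Named were Serpin genes called, or past the adjusted p and above background, Serpinb genes above background, and called members of each list (at most 3 per direction, 4 per marker list) and called neighbours. Gene order and names came from RefSeq GRCm38.p6 (97.5% of genes, 59 of 59 Serpin genes matched). The labels do not say whether the replicate numbers pair the arrays, and the main fit did not pair them. Deviations of same-numbered arrays correlated at 0.26, 0.04 and 0.25, and those of arrays with other numbers at -0.29 to 0.12. Alternatives were further normalization, centring, filters on dim genes, other probe set rules, tests and fold thresholds, a replicate block and leaving out each array. A planned grouping by the reactive loop was not made, as protein sequences were not used here. The values of 1 Serpin gene above background are not reported here, and it is left out of the plots of single genes; it stays in the counts.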

Additional observations from a re-analysis of the deposited data

How the results depend on the processing

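The fold limit moved the counts most. With no fold threshold 12 Serpin genes were higher and 5 lower (31.6% and 24.8% of all genes, 6454 and 5066), with 6 higher and 2 lower in clade B and 4 higher in clade A. At 4-fold, 1 Serpin gene was higher and 0 lower, with 0 Serpinb genes lower (0.912% and 2.49% of all genes), and limma's treat test against 2-fold left 1 higher and 1 lower (2.47% and 4.87% of all genes). Leaving out the dimmest 50% of genes left 11 Serpin genes, 1 of them higher and 2 lower, beside 775 higher and 1099 lower of 10202 genes. Centring each array on its median raised the median of all genes from 0.08 to 0.28, of Serpin genes to 0.30 and of Serpinb genes to 0.24, and turned the split of all calls from 1000 higher and 1548 lower (39.2% higher) to 1466 and 1177 (55.5% higher). Under it 1 Serpin gene was lower, 2 Serpinb genes were higher, Serpinb9b gained one at 1.05 and Serpinb9 turned from -0.14 to 0.063. Serpinb2 was called higher under every alternative run, as was Serpinb8 lower except at 4-fold. Serping1 lost its call at 4-fold and under treat, and was not among the genes tested without the dimmest 50%. In the test without limma's moderation of the spread, 2 Serpin genes were called higher and 2 lower, with or without adjustment. Serpinb9b, Serpinb1a, Serpina3h, Serpina10 and Serpind1, which passed limma's adjusted p alone, did not pass in that test.

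Without each array in turn, 2 to 3 Serpin genes were higher and 1 to 3 lower, 1 to 2 Serpinb genes higher, 4.68% to 5.22% of all genes higher and 7.39% to 7.80% lower. The count of 1 lower came without M0505 replicate 1. Without STOSE replicate 1, Serpinf1 was called lower, Serpinb9b was called higher and Serpinb9, which ranged from -0.26 to 0.061 over these fits, turned to 0.061. The cause of these changes was not tested.

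Among the lists, no fold threshold gave 9 target proteases higher and 7 lower (33.3% and 25.9%) and 2 receptors higher and 8 lower (16.7% and 66.7%). It gave 11 procollagen genes higher and 8 lower (50% and 36.4%), and 14 other inhibitors higher and 10 lower (33.3% and 23.8%). The shares were 31.6% and 24.8% for all genes, and 37.7% and 33.1% for those above background. Nothing about the lists is read from the counts of this paragraph. At 4-fold, 0 target proteases were higher, 2 receptors lower, 2 procollagen genes higher and 0 lower, and 3 other inhibitors lower. Of all 20405 genes, 186 were then higher and 509 lower. Without the dimmest 50%, 0 target proteases were higher and 2 other inhibitors lower, and treat left 0 target proteases higher. Centring or further quantile normalization gave 2 receptors higher, beside 1466 and 1149 of 20405 genes. Leaving out arrays gave 1 to 2 receptors higher, 1 to 2 procollagen genes lower and 3 to 4 target proteases lower. Of all genes, 4.68% to 5.22% were higher and 7.39% to 7.80% lower in these fits.

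Whether the replicate numbers pair the arrays is not given in the labels, and the main fit did not use them. With the number as a replicate block, 1001 genes were higher and 1548 lower, no Serpin call changed, Serpina3h and Serpind1 no longer passed the adjusted p alone (limma adjusted p = 0.0555 and 0.0506), and 5 of 6 arrays correlated best with their own number, a hint from the data and not from the design, STOSE replicate 2 being the exception. Other genes had a smaller limma adjusted p under the block, among them Serpinb9b (0.00144) and Serpinb1a (0.00257), with unchanged log2 fold changes. RMA itself could not be varied, since probe signals were not used here.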

Other observations

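Some genes of serpin descent carry other symbols and stood outside the 59; they were chosen after the values were seen. Agt, angiotensinogen, a clade A serpin that serves as hormone precursor and not as inhibitor, read 5.19, 5.12 and 5.02 in M0505 cells and 5.40, 5.31 and 5.35 in STOSE cells. The arrays did not overlap, with a log2 fold change of 0.24 (limma adjusted p = 0.0119) that was not called. Gm11390, which RefSeq names Serpinb6d and which lies inside the chromosome 13 run, was under background in both lines at 3.08 and 3.08. The other probe sets of Serpina3k and Serpinb9g were dim as well, with log2 fold changes of 0.03 and -0.05.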
